A study of Caenorhabditis elegans with 12 samples.

Results

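The nuclear hormone receptor genes of the nematode Caenorhabditis elegans are described here across wild-type adults and 3 meiotic mutants. Members were all genes whose listed name begins with nhr-, which gave 269 of 20222 listed genes, or 1.33%. Messenger RNA was sequenced from whole animals on day 1 of adulthood, picked as L4 larvae and kept at 20 °C on Escherichia coli OP50. The wild type was N2. The mutants were AV477 dsb-2(me96), AV157 spo-11(me44) and TY4986 htp-3(y428), each with 3 libraries that the submitters call biological replicates. Each mutation was carried by 1 strain, so the mutation cannot be told apart from any other difference of that strain, and the labels do not say how many copies of the allele the collected animals carried. SPO-11 is the enzyme that cuts DNA to start meiotic recombination, DSB-2 is needed for enough of these cuts, and HTP-3 builds the axis of meiotic chromosomes. The submitters' title places the comparison in the study of somatic ageing after meiotic dysfunction.

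Nuclear hormone receptors are transcription factors with a zinc-finger DNA-binding domain and, in most members, a ligand-binding domain that can hold a lipophilic molecule such as a steroid or a fatty acid. The nematode family is far larger than that of insects or mammals, and most of its members descend from an ancestor related to the vertebrate receptor HNF4. A smaller group has direct counterparts in flies and mammals. In the adult worm, family members are best known from the intestine and epidermis, where they control fat desaturation and breakdown, propionate and methionine metabolism, the response to toxins and pathogens, and, in larvae, moulting.

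The libraries held 32422219 to 42527086 mapped reads, as rebuilt from the deposited values. The dsb-2 transcript was at 17.4 to 20.1 TPM (a level scaled by transcript length and by the size of the library) in the dsb-2 strain and 55.4 to 62.5 TPM in N2. The htp-3 transcript was at 6.67 to 12.3 TPM in its own mutant and 67.9 to 77.9 TPM in N2. The spo-11 transcript was at 33.7 to 37.9 TPM in the spo-11 strain, inside the N2 range of 24.5 to 45.9 TPM, so its level does not check that label. Of 12 oocyte and germline markers, 11 were lower in spo-11 than in N2 and 11 were lower in htp-3. Their summed level was 6600 to 7000 TPM in N2, 2396 to 2827 TPM in spo-11 and 2220 to 4817 TPM in htp-3, with none at 0. The 10 neuron markers summed to 243 to 315 TPM in N2, 707 to 907 TPM in spo-11 and 403 to 460 TPM in htp-3, and the 10 muscle markers to 820 to 1091, 2104 to 2918 and 1683 to 2503 TPM in the same order. The 10 intestine markers summed to 1751 to 2632 TPM in N2, 5059 to 6692 TPM in spo-11 and 4818 to 7746 TPM in htp-3, with 4 higher and 1 lower in spo-11 and 9 higher in htp-3. Median-of-ratios scaling (each library divided by its median ratio to a mean library) gave 3 higher and 4 lower intestine markers in spo-11. Of 8 tested hypodermis markers, 7 were higher and 1 lower in spo-11, and 3 were higher and 2 lower in htp-3. Median-of-ratios scaling gave 4 higher and 1 lower, and 3 and 3. The 10 listed summed to 690 to 905 TPM in N2, 1472 to 1825 TPM in spo-11 and 2422 to 3949 TPM in htp-3. Of 10 sperm markers, 9 were higher in spo-11, and 4 were higher and 1 lower in htp-3. Of all genes tested, 55.6% were higher and 22.1% lower in spo-11, and 39.5% and 19.7% in htp-3. In whole animals, fewer cells of a type and less RNA per cell cannot be told apart, and the part of these marker shifts in the results on receptors was not tested.

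Most receptor genes were weakly expressed in wild-type adults. The median over the 269 genes of the mean level was 0.661 TPM in N2 and 0.687 TPM in dsb-2, against 2.30 TPM in spo-11 and 2.02 TPM in htp-3. Genes at 10 TPM or more on average numbered 17 in N2, 15 in dsb-2, 50 in spo-11 and 29 in htp-3. Counted in each library, 109 to 127 genes reached 1 TPM in N2 and 112 to 128 did in dsb-2, while in spo-11 the number was 161 to 163, and the htp-3 libraries had 156 to 158. Neither the spo-11 nor the htp-3 libraries overlapped the other strains on this count. The shift was not confined to receptors. Among all listed genes, each spo-11 library had 1493 to 2081 at 0, and each htp-3 library had 2746 to 3130. The N2 and dsb-2 libraries together spanned 3860 to 4542 such genes. How many of all listed genes reached 1 or 10 TPM in each library was not counted.

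**Figure D1:**
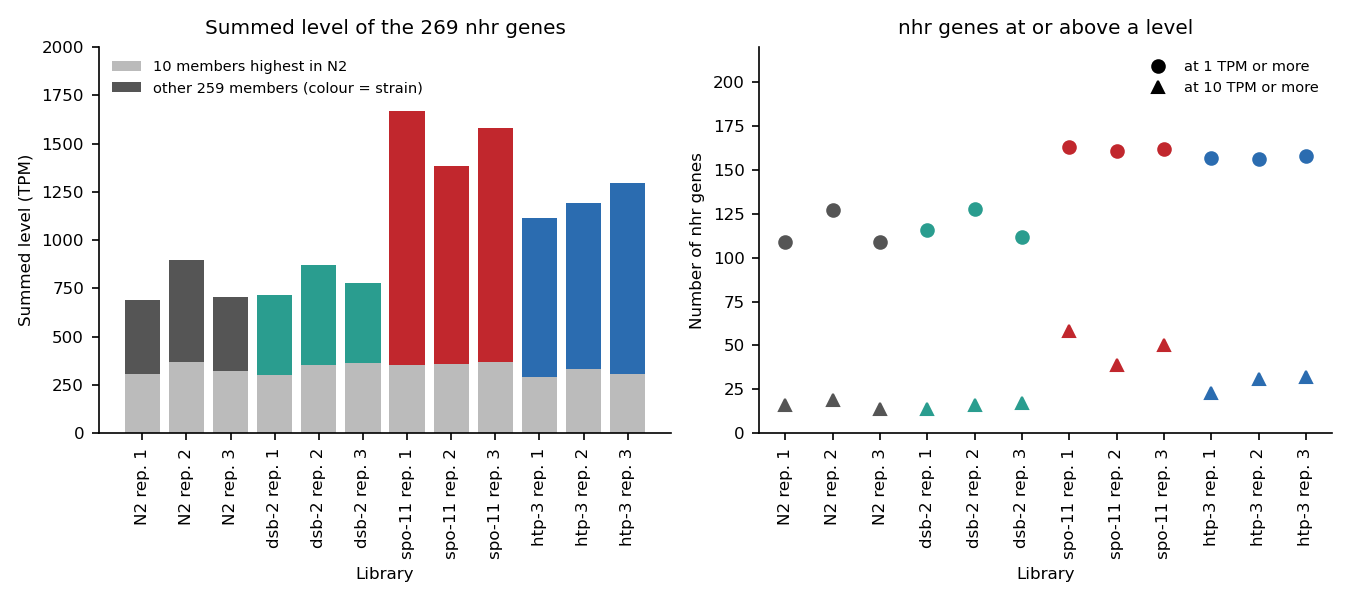
Left, the summed level (TPM) of the 269 nhr genes in each of the 12 libraries, with the 10 members highest in N2 in light grey and the other members in the strain's colour; right, the number of nhr genes at 1 TPM or more (circles) and at 10 TPM or more (triangles) in each library. The grey part stays between 289 and 370 TPM in the 12 libraries, while the coloured part is 378 to 527 TPM in N2 and 1023 to 1312 TPM in spo-11. Single genes within the grey part moved in both directions in spo-11, with nhr-97 higher and nhr-114 and nhr-86 lower.

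A few genes dominated the wild-type family. The 10 highest by mean level in N2 were nhr-114 (88.4 TPM), nhr-86 (52.0), nhr-49 (47.9), nhr-66 (34.7), nhr-274 (23), nhr-97 (22.2), nhr-23 (20.2), nhr-20 (16.4), nhr-10 (14.7) and nhr-46 (14.03). The first 3 of them supplied 23.6 to 26.6% of the family's summed level in N2 libraries and 20.5 to 23.8% in those of dsb-2. Their share was 11.1 to 13.7% in htp-3 libraries, and in spo-11 it was 7.72 to 10.4%. The sum of all 10 stayed within 289 to 370 TPM over the 12 libraries, although single genes among them moved in both directions. In spo-11 nhr-97 rose, while nhr-114 and nhr-86 fell to means of 42.5 and 32.5 TPM. The genes outside these 10 together were at 378 to 527 TPM in N2 and 410 to 519 TPM in dsb-2. They were at 1023 to 1312 TPM in spo-11 and 825 to 989 TPM in htp-3. The family sum was therefore 688 to 897 TPM in N2 and 716 to 870 TPM in dsb-2, 1382 to 1667 TPM in spo-11 and 1115 to 1294 TPM in htp-3. The spo-11 libraries lay above all htp-3 libraries on this sum, and both lay above N2 and dsb-2. The order of the genes changed as well. nhr-97 moved from the sixth place in N2 to the highest level of the family in spo-11, and nhr-68 from the thirteenth place to the third.

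Tests were made where a gene reached 1 TPM in at least 3 libraries, which held for 162 members and 13650 genes in all. Of the 107 members left out, 10 were listed at 0 in all 12 libraries (nhr-77, nhr-118, nhr-197, nhr-217, nhr-223, nhr-233, nhr-241, nhr-248, nhr-285 and nhr-288). The other 97 never exceeded 1.67 TPM in any library. Among these 97 the mean was above that of N2 for 89 genes in spo-11 and for 68 in htp-3. At this level a gene often rests on a few reads, so the counts are descriptions only. The share over all genes left out was not counted. Without the filter, 73.0% of all genes and 91.5% of members had a positive log2 fold change in spo-11. In htp-3 the shares were 63.6% and 81.5%. A gene could also pass the filter through its spo-11 or htp-3 libraries alone, which favours calls of a higher level there.

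No receptor gene was called different between dsb-2 and N2. With limma on log2(TPM + 1) and Benjamini-Hochberg adjustment over all genes tested, 0 of 162 members were higher, where 0.19% of all genes were, and 0 were lower, where 0.0733% were. At an unadjusted p under 0.05 there were 4 members, or 2.47%, against 10.6% of all genes, and limma-voom on rebuilt reads also called 0 members, with 5 at an unadjusted p under 0.05. The smallest adjusted p of a member was 0.449, for nhr-48, a relative of the sterol receptors nhr-8 and daf-12. It read 3.51, 5.03 and 4.56 TPM in N2 and 4.89, 7.05 and 8.60 TPM in dsb-2, which overlap. The middle 80% of member log2 fold changes in dsb-2 lay between -0.17 and 0.26, and the median was 0.05 against 0.02 over all genes.

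In spo-11, 135 of the 162 members were higher than in N2, which is 83.3% against 55.6% of all genes tested, and 3 were lower, which is 1.85% against 22.1%. The median log2 fold change was 1.09 for the members and 0.80 for all genes. Both ends of the distribution were nearer to the middle for receptors, with a 10th percentile of 0.16 against -0.85 and a 90th of 1.96 against 2.72. Weak genes as a whole were mostly higher in spo-11, so the shares are given by level. Among genes under 2 TPM on average over the 12 libraries, 39 of 42 members (92.9%) and 88.9% of genes were higher, and between 2 and 5 TPM it was 44 of 51 members (86.3%) and 85.5% of genes. From 5 to 10 TPM the shares were 92.9% of 42 members and 77.1% of genes, and at 10 TPM or more they were 48.1% of 27 members and 31% of genes. In the lowest 3 of these ranges the median member changed less than the median gene, with 0.95 against 1.29, 1.17 against 1.69 and 1.27 against 1.52. At 10 TPM or more the order was reversed, with 0.72 for members and -0.21 for genes. Of the 104 members at 1 TPM or more in every N2 library, 79 were higher and 3 lower, so that 76% of these members and 38.7% of such genes were higher.

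In htp-3, 118 members were higher than in N2, or 72.8% against 39.5% of genes, and 4 were lower, or 2.47% against 19.7%. The median log2 fold change was 0.89 for members and 0.27 for all genes. The share was above that of genes in each range of level. Under 2 TPM 34 of 42 members (81.0%) and 45.5% of genes were higher, between 2 and 5 TPM 80.4% and 57.7%, between 5 and 10 TPM 73.8% and 62.9%, and at 10 TPM or more 44.4% and 27.4%. The member medians were above the gene medians in all 4 ranges, with 0.79 against 0.39 in the lowest and 0.45 against -0.23 in the highest. These ranges use means that include the mutant libraries, and weak genes could pass the filter through those alone. Of the 104 members at 1 TPM or more in every N2 library, 68 were higher and 4 lower. That is 65.4% of these members higher, against 32.9% of such genes. The 4 lower members were nhr-86, nhr-20, nhr-23 and nhr-274, and leaving out N2 replicate 1, N2 replicate 2 or htp-3 replicate 1 left 1 of them called lower, while leaving out htp-3 replicate 3 left 2 and leaving out htp-3 replicate 2 raised the number to 7.

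**Figure D2:**
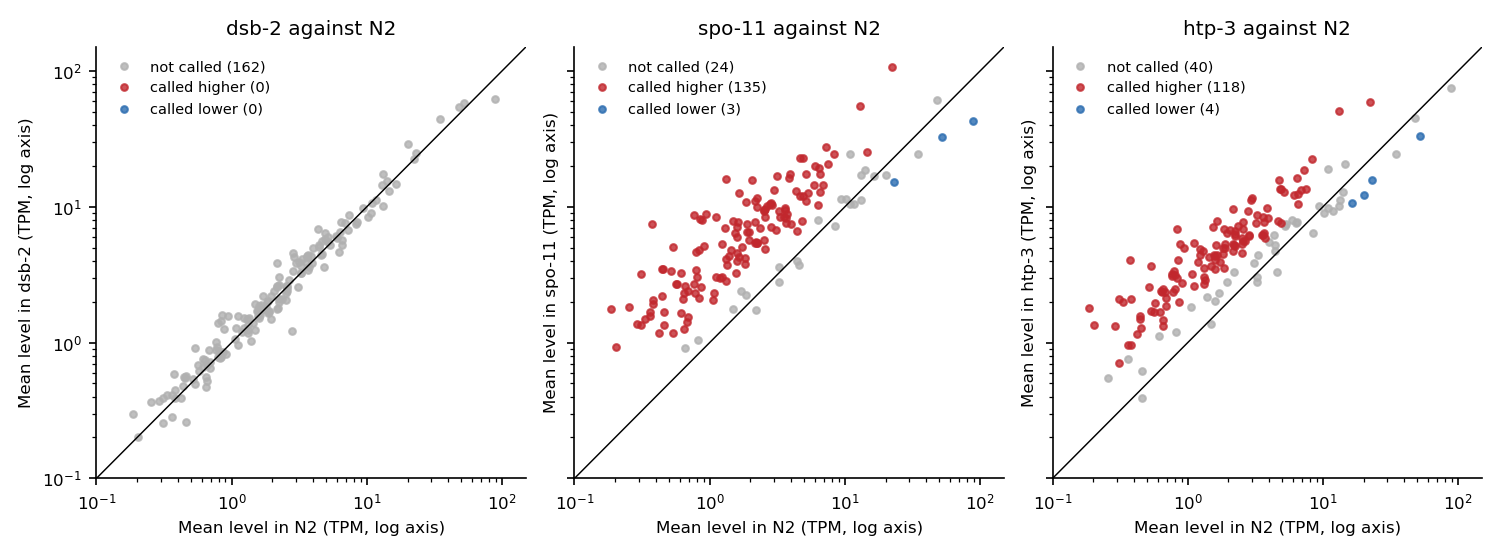
Mean level of the 162 tested nhr genes in each mutant against their mean level in N2 (TPM, log axes; means of 3 libraries), with genes called higher in red, lower in blue and not called in grey; the line marks equal levels. The dsb-2 genes lie along the line with none called, while 135 genes in spo-11 and 118 in htp-3 are called higher, and the few called lower are among the genes with high N2 levels.

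TPM values add up to a fixed total in each library, so a fall of abundant transcripts raises the others. When libraries were instead scaled by the median of ratios to their mean library, the all-gene median log2 fold change moved from 0.80 to 0.16 in spo-11 and from 0.27 to 0.07 in htp-3. In spo-11 the counts became 96 members higher, with 44.2% of genes, and 18 lower, with 39.9% of genes. In htp-3 they became 105 higher, with 30.9% of genes, and 16 lower, with 34.7% of genes. Member medians were then 0.52 in spo-11 and 0.59 in htp-3, both still above the all-gene medians. Used in place of N2, an alternative chosen after the data were seen, dsb-2 gave 134 members higher in spo-11 (55.9% of genes) and 5 lower (23.8%), and 120 higher in htp-3 (41.6%) and 5 lower (23%).

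**Figure D3:**
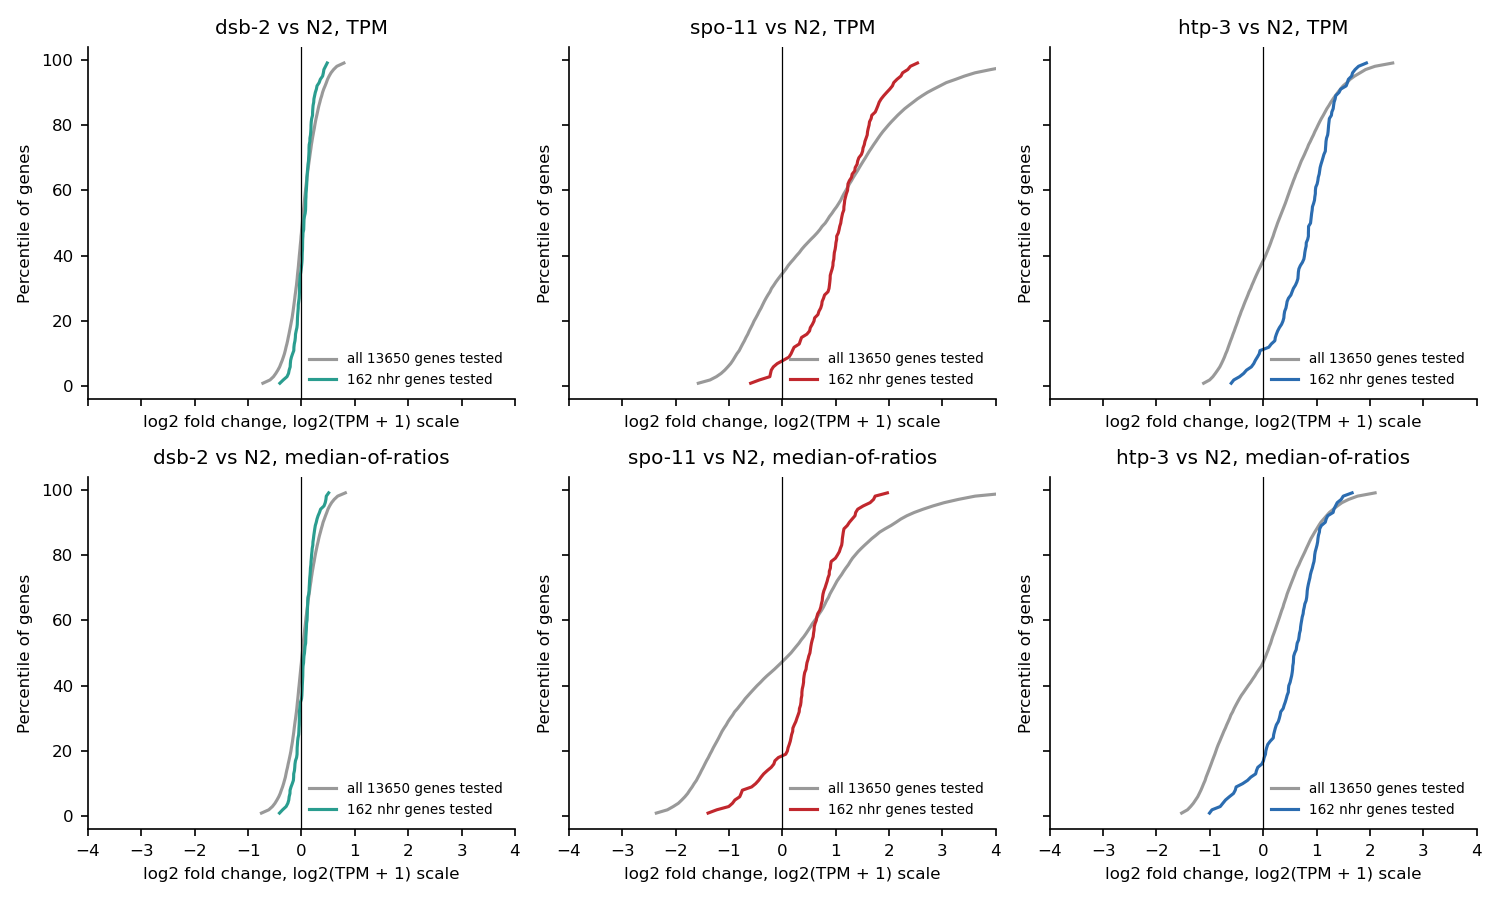
Percentiles of the log2 fold change against N2 for the 162 tested nhr genes (coloured) and all 13650 tested genes (grey), on deposited TPM (top) and after median-of-ratios scaling of the same values (bottom), one column per mutant. In dsb-2 both curves sit close to 0; in spo-11 and htp-3 the nhr curve starts higher and is steeper, with a median of 1.09 and 0.89 on TPM and 0.52 and 0.59 after scaling.

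The metabolic receptors were 10 genes chosen for known roles in fat, propionate and methionine metabolism, all of them tested. In spo-11, 6 were higher and 1 was lower than in N2, and in htp-3 4 were higher and none lower. These counts are near the 55.6% and 39.5% of all genes that were higher. Their median log2 fold change was 0.97 in spo-11 and 0.33 in htp-3, beside 0.80 and 0.27 over all genes. Median-of-ratios scaling gave 5 higher and 4 lower in spo-11, and 4 and 4 in htp-3. The largest change was in nhr-68, which acts with nhr-10 to switch on the propionate shunt, the alternative route that clears propionate when vitamin B12 is short. nhr-68 (chromosome V, 11573440 to 11575709, plus strand; coordinates counted from 1 on WBcel235 as the files give them) read 6.59, 22.4 and 10.2 TPM in N2, 54.1, 53.4 and 57.7 TPM in spo-11, and 43.6, 47.6 and 62.03 TPM in htp-3. Every spo-11 and htp-3 library lay above every N2 library, although the N2 libraries differed among themselves by more than 3-fold. The log2 fold change was 2.16 ± 0.35 (SE, n = 3 libraries a strain, limma adjusted p = 4.01e-05) in spo-11 and 2.04 ± 0.35 (adjusted p = 0.000266) in htp-3. Its partner nhr-10 read 14.4, 16.5 and 13.1 TPM in N2, 26.6, 19.2 and 29.6 TPM in spo-11, and 16.2, 20.6 and 24.8 TPM in htp-3. It was called higher in spo-11, at 0.72 ± 0.23 (adjusted p = 0.00919), but not in htp-3 (0.45 ± 0.23, adjusted p = 0.103). The spo-11 call did not survive leaving out spo-11 replicate 3 (0.60, adjusted p = 0.0516), and under median-of-ratios scaling its sign turned, to -0.07.

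nhr-114 protects the germline on a poor diet and regulates methionine metabolism, and it was the highest receptor of the wild type. It read 61.2, 107 and 96.8 TPM in N2, 38.5, 50.9 and 37.99 TPM in spo-11, and 78.6, 74.8 and 69.4 TPM in htp-3. The spo-11 libraries were below all others, whereas htp-3 overlapped N2. nhr-114 fell in spo-11 by 1.01 ± 0.20 on the log2 scale (adjusted p = 0.000307), and by 1.83 after median-of-ratios scaling. In htp-3 its difference was -0.21 ± 0.20 (adjusted p = 0.38), which median-of-ratios scaling moved to a lower call of -0.63 (adjusted p = 0.0109). htp-3 exceeded spo-11 by 0.80 ± 0.20 (adjusted p = 0.00415). Part of this gene overlaps Y45G5AM.9 on the opposite strand, and the sources used here do not say whether counting used strand.

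nhr-49, an HNF4-like activator of fatty acid desaturation and oxidation, read 45.3, 52.0 and 46.5 TPM in N2, 59.6, 58.1 and 65.8 TPM in spo-11, and 42.1, 50.2 and 42.5 TPM in htp-3. The spo-11 libraries all lay above N2, but the difference of 0.35 ± 0.16 missed the threshold (adjusted p = 0.054). It was called higher in 4 alternatives, which were limma-voom, no filter, a pseudocount of 5 and a fit of only the strains compared (adjusted p = 0.0217 to 0.0448). Median-of-ratios scaling turned it to a lower call of -0.48, and also gave a lower call of -0.51 in htp-3 (adjusted p = 0.00926). Its binding partners nhr-66 and nhr-13 gave -0.48 ± 0.23 and -0.16 ± 0.18 in spo-11 and were not called. After median-of-ratios scaling both were called lower in spo-11 and in htp-3, and nhr-66 was called lower in spo-11 in 6 alternatives in all. nhr-80, which acts with nhr-49 on the desaturase genes fat-6 and fat-7, read 2.95, 5.60 and 3.09 TPM in N2, 17.0, 14.8 and 16.8 TPM in spo-11, and 11.2, 8.85 and 9.06 TPM in htp-3. The 3 strains did not overlap, with rises over N2 of 1.86 ± 0.24 (adjusted p = 4.48e-06) in spo-11 and 1.17 ± 0.24 (adjusted p = 0.000968) in htp-3.

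Other lipid receptors also rose. nhr-76, needed for serotonin-driven fat loss in the intestine, was at 4.29 to 6.04 TPM in N2, 16.2 to 19 TPM in spo-11 and 12.2 to 13.8 TPM in htp-3. nhr-64, which influences fat storage, was at 3.17 to 4.32 TPM in N2, 8.30 to 10.7 TPM in spo-11 and 7.97 to 8.74 TPM in htp-3. Both rose in both mutants, nhr-76 by 1.59 ± 0.19 and 1.17 ± 0.19 and nhr-64 by 1.23 ± 0.19 and 1.03 ± 0.19 in spo-11 and htp-3. nhr-62, which is required for the long life of diet-restricted worms, behaved differently. It read 1.34, 1.74 and 1.69 TPM in N2, 6.45, 5.46 and 6.08 TPM in spo-11, and 2.18, 1.59 and 2.28 TPM in htp-3. The spo-11 libraries stood alone, 1.43 ± 0.18 above N2 (adjusted p = 2.85e-06), and htp-3 overlapped N2, at 0.21 ± 0.18 (adjusted p = 0.307). The test of htp-3 against spo-11 gave -1.22 ± 0.18 (adjusted p = 3.74e-05).

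**Figure D4:**
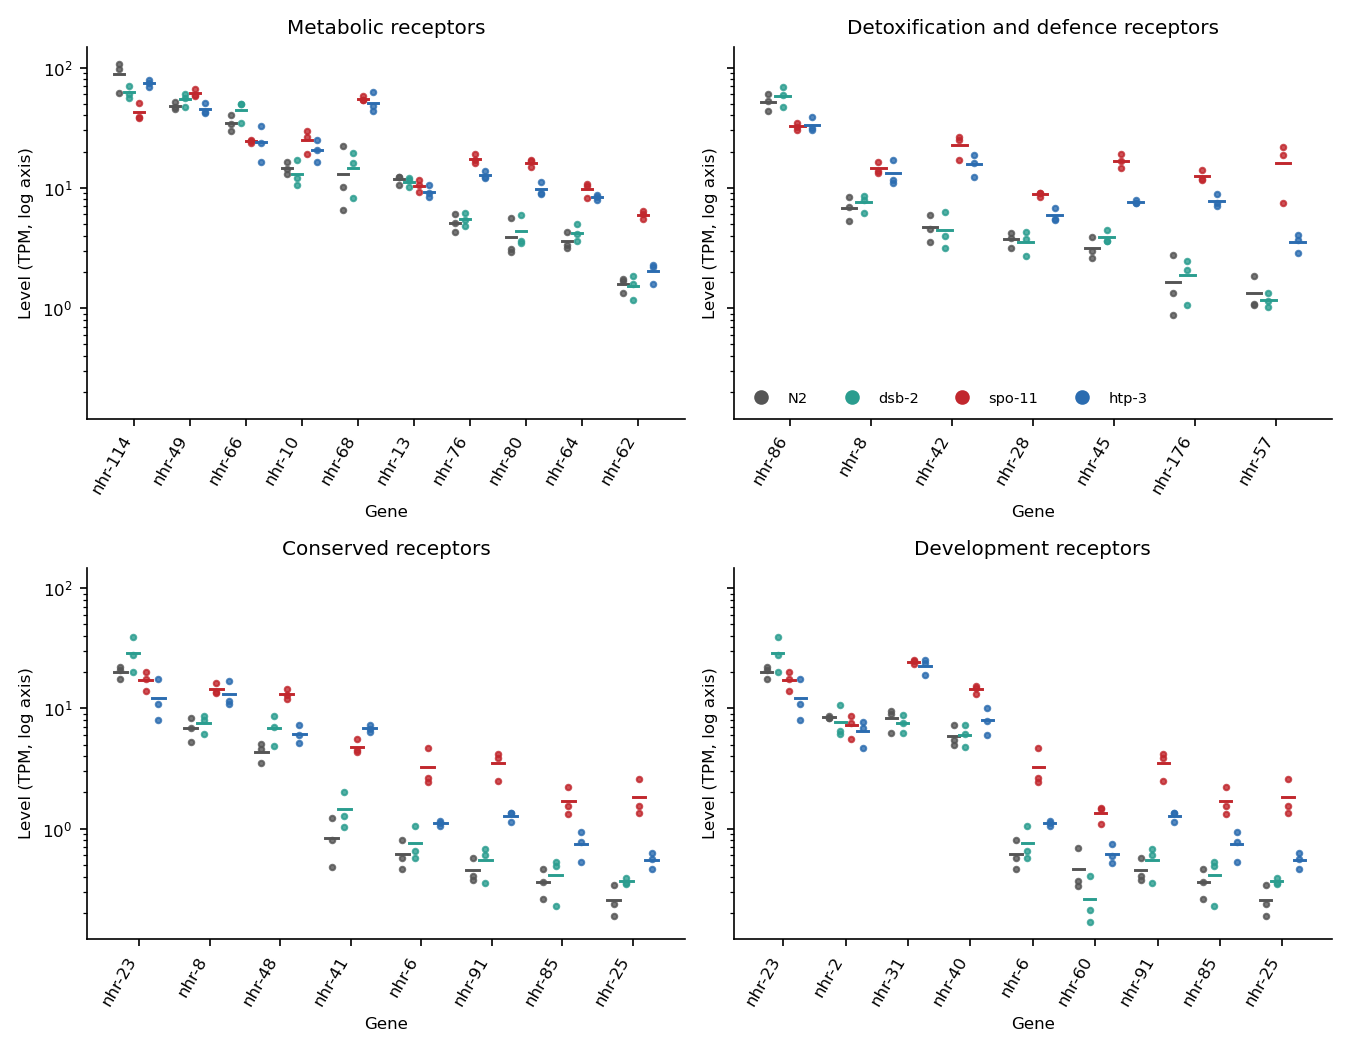
Level (TPM, log axis) of the tested receptors of 4 role lists in N2, dsb-2, spo-11 and htp-3; points are the 3 libraries of a strain and bars their mean, with genes ordered by their N2 mean and a few genes in more than 1 list. Of the genes plotted, nhr-57 shows the widest ratio between N2 and spo-11, from a mean of 1.33 to 16.01 TPM, while nhr-114 and nhr-86 are lower in spo-11 than in N2.

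The 7 detoxification and defence receptors were all tested, and 6 were higher and 1 lower in spo-11 as well as in htp-3, where 55.6% and 39.5% of all genes were higher. Their medians were 2.06 in spo-11 and 0.98 in htp-3, beside 0.80 and 0.27 over all genes. nhr-57 is a well-known target of the hypoxia factor HIF-1, and on the log2(TPM + 1) scale it showed the largest rise of any tested member in spo-11. With limma-voom, a pseudocount of 0.1 or median-of-ratios scaling nhr-99 rose more (4.43, 4.10 and 2.112, against 3.49, 3.40 and 2.105 for nhr-57). nhr-57 (chromosome V, 4131925 to 4134981) read 1.07, 1.84 and 1.07 TPM in N2, 1.03, 1.33 and 1.14 TPM in dsb-2, 21.9, 7.49 and 18.7 TPM in spo-11, and 3.702, 2.89 and 4.07 TPM in htp-3. No strain overlapped another except N2 and dsb-2, and spo-11 replicate 2 was well below the other libraries of that strain. The rises were 2.77 ± 0.30 (adjusted p = 6.6e-07) in spo-11 and 0.98 ± 0.30 (adjusted p = 0.0115) in htp-3. The rise in htp-3 was not called with a pseudocount of 5 (0.44, adjusted p = 0.09). nhr-57 overlaps lgc-1 on the same strand, so reads in the shared part could be credited to either gene.

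nhr-176, which binds the drug thiabendazole and switches on the detoxification enzyme cyp-35D1, read 1.34, 2.77 and 0.868 TPM in N2, 14.2, 11.8 and 11.6 TPM in spo-11, and 7.44, 8.93 and 7.003 TPM in htp-3. Again no library of either mutant overlapped N2, with rises of 2.40 ± 0.26 (adjusted p = 7.49e-07) and 1.78 ± 0.26 (adjusted p = 9.25e-05). nhr-45, which acts in the response to mitochondrial dysfunction and toxins, rose by 2.10 ± 0.19 in spo-11 and 1.06 ± 0.19 in htp-3, from 2.58 to 3.93 TPM in N2. nhr-8, a sterol-related receptor for cholesterol balance and drug resistance, rose by 1.00 ± 0.22 and 0.85 ± 0.22, but neither call survived median-of-ratios scaling (0.24 and 0.47). nhr-42 rose by 2.06 ± 0.26 and 1.55 ± 0.26, and nhr-28 by 1.06 ± 0.20 and 0.54 ± 0.20. The nhr-28 calls both ended under median-of-ratios scaling, and the htp-3 call also without N2 replicate 1 (adjusted p = 0.104), N2 replicate 3 (adjusted p = 0.0549) or htp-3 replicate 3 (adjusted p = 0.107).

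nhr-86, which senses a bacterial phenazine and drives pathogen defence in the intestine, went the other way. It read 59.9, 52.3 and 43.8 TPM in N2, 59.4, 47.1 and 68.3 TPM in dsb-2, 30.5, 34.6 and 32.2 TPM in spo-11, and 30.1, 38.5 and 31.5 TPM in htp-3. Every library of spo-11 and htp-3 lay below every library of N2 and dsb-2. The gene fell by 0.65 ± 0.18 on the log2 scale in spo-11 (adjusted p = 0.00412) and by 0.62 ± 0.18 in htp-3 (adjusted p = 0.00929). Without N2 replicate 1 the htp-3 difference was -0.52 with an adjusted p of 0.0517. nhr-86 overlaps comt-3 on the opposite strand. nhr-274, for which no role is given here, also fell in both, by 0.55 ± 0.21 in each, but its spo-11 call was lost without N2 replicate 1 or 2 or spo-11 replicate 1 or 2 (adjusted p = 0.0569 to 0.0874), and its htp-3 call without N2 replicate 1 or 2 or htp-3 replicate 1 or 3 (adjusted p = 0.0716 to 0.153).

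Of 11 receptors with counterparts in flies and mammals, 8 were tested. In spo-11 7 were higher and none lower, and in htp-3 3 were higher and 1 was lower, the higher shares of all genes being 55.6% and 39.5%. However, nhr-25 and nhr-85 reached 1 TPM only in spo-11 libraries, and nhr-91 only in those of spo-11 and htp-3. They were tested because of those libraries, which favours higher calls there, so these counts are descriptions only. The medians of the 8 tested genes were 1.26 and 0.41, beside 0.80 and 0.27 over all genes, and the htp-3 count is near the share of all genes. Median-of-ratios scaling gave 6 higher and 1 lower in spo-11. The most marked was nhr-41, the counterpart of Drosophila DHR78. It read 0.481, 1.22 and 0.801 TPM in N2, 1.04, 2.03 and 1.28 TPM in dsb-2, 4.36, 4.50 and 5.57 TPM in spo-11, and 7.27, 6.79 and 6.37 TPM in htp-3. The htp-3 libraries were above those of spo-11, and both were above N2 and dsb-2. nhr-41 had the largest rise of the family in htp-3 on the log2(TPM + 1) scale, at 2.11 ± 0.20 (adjusted p = 3.94e-06), with 1.68 ± 0.20 (adjusted p = 2.44e-06) in spo-11. The difference between those mutants, 0.43 ± 0.20, missed the threshold (adjusted p = 0.0994), but was called after median-of-ratios scaling, at 0.75. Other receptors rose more than nhr-41 in htp-3 under some alternatives, such as nhr-99 with limma-voom (3.49 against 3.09) and nhr-68 without N2 replicate 2 (2.49 against 2.26).

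nhr-23, the ROR counterpart that drives larval moulting, was the most abundant of the conserved set. It read 17.5, 20.9 and 22.1 TPM in N2, 13.9, 17.7 and 20.0 TPM in spo-11, and 8.08, 17.6 and 10.9 TPM in htp-3. It was not called in spo-11 (-0.23 ± 0.27), and its fall of 0.74 ± 0.27 in htp-3 (adjusted p = 0.0298) was lost without N2 replicate 2 or 3 or htp-3 replicate 1 or 3 (adjusted p = 0.0717 to 0.143). After median-of-ratios scaling nhr-23 was called lower in spo-11 too, at -1.01.

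nhr-25, the Ftz-F1 counterpart of epidermal and gonadal development, was at 0.187 to 0.342 TPM in N2 on 15 to 30 reads, at 1.36 to 2.61 TPM in spo-11 on 92 to 188 reads, and at 0.466 to 0.622 TPM in htp-3. nhr-6, the NR4A counterpart that shapes the spermatheca, was at 0.466 to 0.809, 2.44 to 4.67 and 1.06 to 1.16 TPM in the same order. nhr-91, the counterpart of the germ cell nuclear factor of mammals, was at 0.378 to 0.566, 2.47 to 4.17 and 1.14 to 1.36 TPM. For all 3 genes the spo-11 libraries lay above those of htp-3, and those above N2. Only nhr-91 was called in htp-3 (0.66 ± 0.17), while in spo-11 the rises were 1.15 ± 0.16 for nhr-25, 1.36 ± 0.19 for nhr-6 and 1.62 ± 0.17 for nhr-91. nhr-85, a counterpart of Rev-erb and E75, rose by 0.97 ± 0.16 in spo-11, and nhr-48 by 1.401 ± 0.22. Neither was called in htp-3 (0.36 ± 0.16 and 0.42 ± 0.22). The tailless counterpart nhr-67, which acts in neurons and in the uterine anchor cell, never exceeded 1.53 TPM, its spo-11 library 1, and was not tested, and nhr-111 and nhr-239 stayed lower still.

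Among 10 development receptors, of which 9 were tested and 6 are also in the conserved set, 7 were higher in spo-11, and 2 were higher and 1 lower in htp-3. Of all genes 55.6% and 39.5% were higher, and the medians of these receptors were 1.15 and 0.36. Under median-of-ratios scaling 7 were higher and 2 lower in spo-11, and 2 and 2 in htp-3. In this set nhr-25, nhr-60 and nhr-85 reached 1 TPM only in spo-11 libraries, and nhr-91 only in those of spo-11 and htp-3. Being tested through those libraries favours higher calls there, so these counts too are descriptions only. nhr-31, required for the growth of the excretory canal, was at 6.28 to 9.55 TPM in N2, 23.2 to 25.4 TPM in spo-11 and 18.98 to 25.1 TPM in htp-3. Its rises of 1.48 ± 0.20 and 1.35 ± 0.20 made it the clearest member of this set in htp-3. nhr-40, which acts in embryonic muscle development, rose by 1.17 ± 0.23 in spo-11 (13.2 to 15.2 TPM against 4.95 to 7.33 TPM) and gave 0.37 ± 0.23 in htp-3. nhr-60, needed in epidermal seam cells, rose by 0.69 ± 0.15 in spo-11 but was at 1.08 to 1.499 TPM there. nhr-2, an early embryonic gene, was at 8.29 to 8.67 TPM in N2, 5.57 to 8.59 TPM in spo-11 and 4.70 to 7.67 TPM in htp-3 and was not called in either, although median-of-ratios scaling called it lower in both.

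Several of the largest changes were in receptors for which no role is stated here. nhr-97 (chromosome IV, 9757648 to 9764494, plus strand) read 22.4, 23.4 and 20.9 TPM in N2, 22.3, 25.2 and 20.2 TPM in dsb-2, 109.8, 104 and 108.5 TPM in spo-11, and 67.9, 48.8 and 61.6 TPM in htp-3. The spread within each strain was small beside the gaps, and the order spo-11, htp-3, N2 held for every library. Its log2 fold changes were 2.23 ± 0.16 (adjusted p = 1.45e-08) and 1.37 ± 0.16 (adjusted p = 2e-05), from 1262 or more reads in each library. nhr-99 read 0.169, 0.569 and 0.377 TPM in N2, 7.93, 6.94 and 7.58 TPM in spo-11, and 2.92, 4.18 and 5.05 TPM in htp-3, on 7 to 21, 241 to 294 and 116 to 192 reads. The rises were 2.64 ± 0.20 in spo-11 and 1.87 ± 0.20 in htp-3. For so weak a gene the log2(TPM + 1) scale understates the ratio of levels.

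nhr-50 was at 0.812 to 1.05 TPM in N2, 8.21 to 9.41 TPM in spo-11 and 4.08 to 6.01 TPM in htp-3. nhr-112 was at 0.45 to 1.16, 7.46 to 9.75 and 2.10 to 4.07 TPM, and nhr-58 at 0.775 to 0.952, 5.65 to 10.1 and 3.28 to 5.36 TPM. In nhr-50 and nhr-58 no strain overlapped another of these 3, and the same held for nhr-112. nhr-21 varied more, at 1.23 to 3.40 TPM in N2, 7.18, 19.4 and 20.5 TPM in spo-11 and 4.87 to 9.91 TPM in htp-3, so that spo-11 and htp-3 overlapped. nhr-117 rose by 2.24 ± 0.28 in spo-11 and 1.71 ± 0.28 in htp-3. In htp-3, nhr-137 rose by 1.79 ± 0.34, nhr-232 by 1.68 ± 0.25 and nhr-88 by 1.66 ± 0.23, and their rises in spo-11 were 1.505 ± 0.34, 1.55 ± 0.25 and 1.52 ± 0.23. nhr-20, the eighth gene in N2, was at 14.9 to 17.9 TPM in N2, 14.4 to 18.9 TPM in spo-11 and 7.84 to 12.3 TPM in htp-3. Its fall of 0.58 ± 0.21 in htp-3 (adjusted p = 0.025) was lost without N2 replicate 1 or 2 or htp-3 replicate 1 (adjusted p = 0.0572 to 0.111), and in spo-11 its 0.03 turned to a lower call of -0.76 under median-of-ratios scaling. nhr-69, known from insulin secretion, and nhr-17 were chosen after their values were seen, because they were the sixth and the eighth highest receptors in spo-11. nhr-69 read 4.97, 10.1 and 6.83 TPM in N2 and 30.1, 25.01 and 26.8 TPM in spo-11, and nhr-17 read 11.6, 15.2 and 5.73 TPM in N2 and 44.2, 20.0 and 9.73 TPM in spo-11. The nhr-69 groups were apart, and those of nhr-17 overlapped.

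Setting htp-3 against spo-11 directly, 4 members were higher in htp-3, or 2.47% against 8.1% of genes, and 52 were lower, or 32.1% against 38.6%. The member share of lower calls was thus near that of all genes, and the medians were -0.28 and -0.32. This split depended on scaling, because median-of-ratios gave 23 members higher, with 22.4% of genes, and 16 lower, with 26.4% of genes. It also depended on the spo-11 libraries, since 29 members were lower without spo-11 replicate 1 and 30 without spo-11 replicate 3. Over all 13650 genes, 4408 and 4616 were lower in these fits, against 5264 with every library. The largest differences were in nhr-57 (-1.79 ± 0.30), nhr-112 (-1.23 ± 0.26), nhr-62 (-1.22 ± 0.18), nhr-19 (-1.06 ± 0.23) and nhr-45 (-1.03 ± 0.19), and nhr-35, nhr-48, nhr-6, nhr-91 and nhr-56 followed at -0.99 to -0.91. All 10 remained called lower under median-of-ratios scaling. The 4 higher members were nhr-114 (0.80 ± 0.20), nhr-55 (0.73 ± 0.18), nhr-286 (0.65 ± 0.20) and nhr-201 (0.50 ± 0.19). nhr-55 read 4.77, 5.18 and 4.49 TPM in N2, 8.90, 7.68 and 6.92 TPM in spo-11, and 14.1, 14.2 and 12.4 TPM in htp-3, with no overlap between these strains. nhr-286 lost its call without htp-3 replicate 1 (adjusted p = 0.0756), and nhr-201 lost its call without any 1 of 5 of the 6 libraries (adjusted p = 0.0733 to 0.174).

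The family is concentrated on chromosome V. It held 166 of the 269 genes, or 61.7%, against 25.1% of all listed genes. Chromosome IV held 34, I and X 23 each, II 15 and III 8. The V members had a median mean level of 0.597 TPM in N2, between 0.178 TPM for those on I and 0.857 TPM for those on II, and the III, IV and X members were at 2.14, 2.37 and 2.57 TPM. Of 101 tested V members, 87 were higher in spo-11 and 81 in htp-3, beside 63.9% and 49.3% of V genes. Of 16 tested X members, 14 and 11 were higher, beside 80.7% and 63.1% of X genes. The median member on V changed by 1.07 in spo-11 and that of all V genes by 1.12. The corresponding medians in htp-3 were 0.92 and 0.48.

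Members often lay next to each other: 140 of them stood in 45 groups of 2 or more with no other listed gene between. The largest groups were all on chromosome V. Since 83.3% of tested members were higher in spo-11 and 72.8% in htp-3, the counts below are descriptions of these groups. A group of 7, from nhr-56 to nhr-96 (2219004 to 2235138), was wholly higher in both mutants. nhr-56 was its widest case, at 1.42 to 1.60 TPM in N2, 6.09 to 9.07 TPM in spo-11 and 3.39 to 4.10 TPM in htp-3. nhr-96 was its narrowest in spo-11, at 1.48 to 2.37 TPM in N2 and 3.34 to 4.10 TPM in spo-11, and its spo-11 call ended under median-of-ratios scaling (0.16). A group of 6, from nhr-99 to nhr-106 (474791 to 491430), was also wholly higher in both, but its levels in spo-11 ran from 1.68 TPM in nhr-211 to 14.6 TPM in nhr-130, and its nhr-55 call in spo-11 (0.60 ± 0.18) turned to -0.12 under median-of-ratios scaling, which also ended that of nhr-211 (0.16). In the group of 7 from nhr-161 to nhr-42 (6980595 to 7000651), 6 members were higher in both mutants. The exception nhr-161 sat at the edge of the group at 2.61 to 4.07 TPM in N2, 2.31 to 3.62 TPM in spo-11 and 2.11 to 3.16 TPM in htp-3, and median-of-ratios scaling called it lower in both. In the group from nhr-206 to nhr-136 (12092006 to 12109201), 6 of 7 were tested, with 6 higher in spo-11 and 5 in htp-3. Some neighbours were all weak. The largest group, 9 genes from nhr-185 to nhr-124 (3844645 to 3886204), had no tested member, and neither had the 6 genes from nhr-51 to nhr-198 (15674026 to 15696217). Neighbouring receptors can be similar in sequence, and how reads that match several of them were counted is not given in the sources used here.

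**Figure D5:**
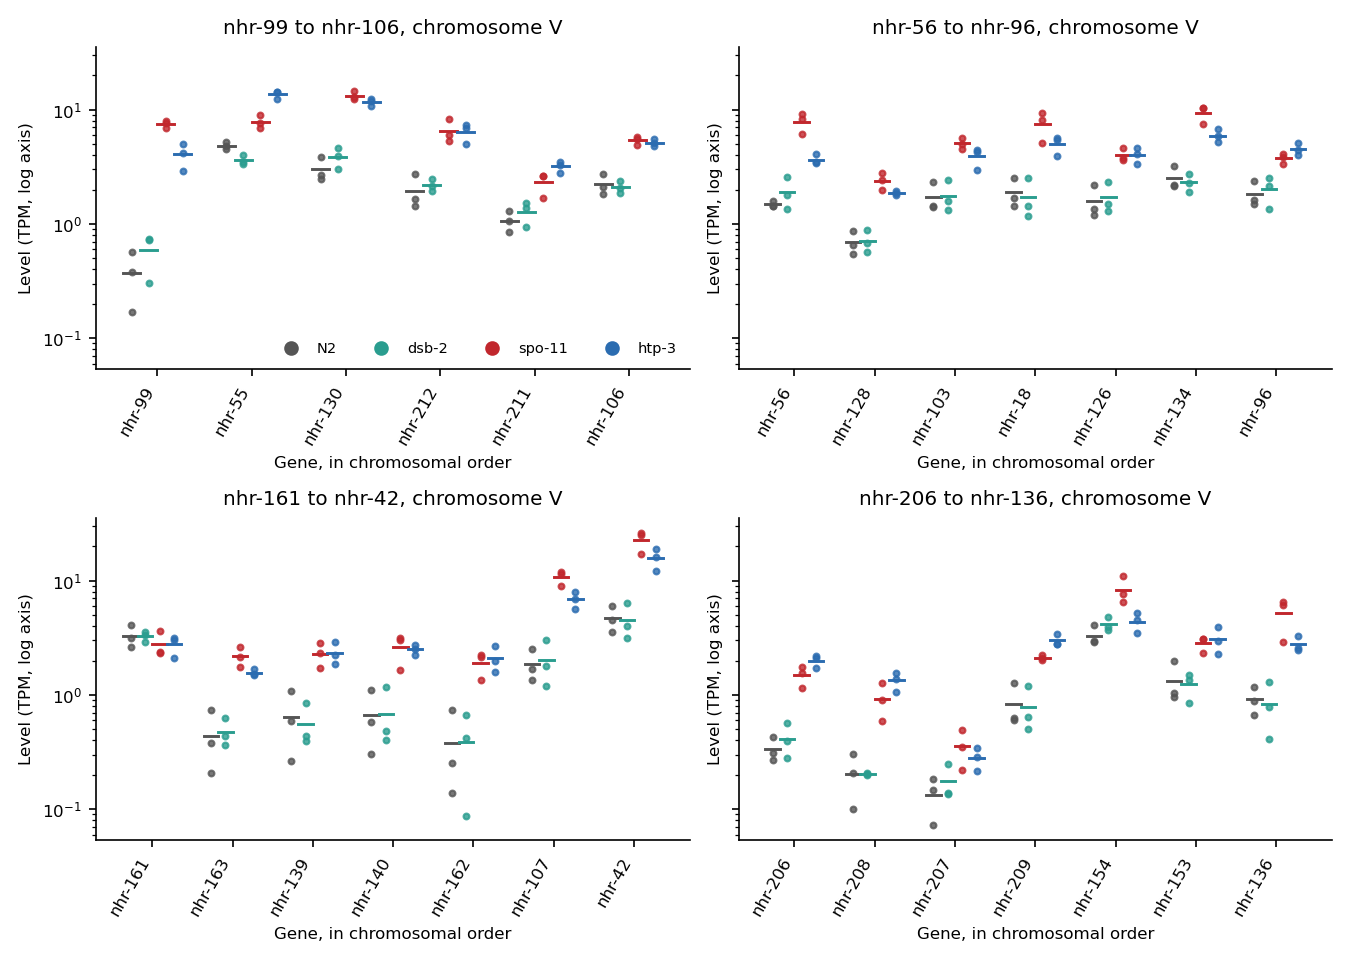
Level (TPM, log axis) of the nhr genes in 4 groups of neighbouring receptors on chromosome V, in chromosomal order, for N2, dsb-2, spo-11 and htp-3; points are the 3 libraries of a strain and bars their mean. Within a group the level differs widely between neighbours, as from nhr-162 to nhr-42, while most genes are higher in spo-11 and htp-3 than in N2 and dsb-2, apart from nhr-161.

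Genes that work with the receptors were counted from fixed lists, and none of them was called in dsb-2. Of all genes 55.6% were higher in spo-11 and 39.5% in htp-3. Receptors with other names held 5 genes, of which 2 were tested. daf-12, the receptor for dafachronic acid, read 0.942, 1.85 and 1.39 TPM in N2, 6.96, 5.68 and 7.74 TPM in spo-11, and 5.69, 5.30 and 5.09 TPM in htp-3, and rose by 1.71 ± 0.20 and 1.43 ± 0.20. sex-1 rose in spo-11 by 0.61 ± 0.24, a call that turned to -0.16 under median-of-ratios scaling. Of 8 genes of dafachronic acid synthesis and its control 6 were tested, and 4 were higher in spo-11 and 3 in htp-3. Median-of-ratios scaling gave 4 higher and 1 lower, and 2 higher and 1 lower. daf-9, the cytochrome P450 of the last step, was at 0.264 to 0.418 TPM in N2, 3.42 to 3.93 TPM in spo-11 and 0.85 to 1.15 TPM in htp-3. The sterol transporter gene ncr-1 rose by 2.27 ± 0.22 in spo-11 and 1.78 ± 0.22 in htp-3. Of 9 coregulator genes 4 were higher and 2 lower in spo-11, and 1 was higher and 2 were lower in htp-3, while median-of-ratios scaling gave 1 higher and 5 lower in each. mdt-15, the Mediator subunit that binds nhr-49, rose in spo-11 by 0.96 ± 0.27, but median-of-ratios scaling left it uncalled (0.15, adjusted p = 0.585). The subunit gene mdt-6 fell by 1.17 ± 0.18, and by 1.99 under that scaling.

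Known targets of the receptors moved in both directions, and their counts stand beside 55.6% higher and 22.1% lower of all genes in spo-11 and 39.5% and 19.7% in htp-3. Of 9 tested fat targets 6 were higher and 1 lower in spo-11, and 3 were higher and 1 lower in htp-3. Median-of-ratios scaling gave 4 higher and 2 lower, and 2 and 2. The desaturase genes parted in spo-11: fat-6 was at 189 to 229 TPM in N2 and 610 to 743 TPM in spo-11, and fat-7 at 171 to 237 TPM in N2 and 11.7 to 23.3 TPM in spo-11. In htp-3 fat-6 was at 310 to 559 TPM and fat-7 at 120 to 125 TPM. The log2 fold changes in spo-11 were 1.72 ± 0.26 for fat-6 and -3.59 ± 0.25 for fat-7, and in htp-3 0.99 ± 0.26 and -0.68 ± 0.25. The fat-6 rise in htp-3 was not called under median-of-ratios scaling (0.57, adjusted p = 0.07). The acyl-CoA synthetase gene acs-2, which nhr-49 activates, was at 8.24 to 13.6 TPM in N2, 39.8 to 117 TPM in spo-11 and 14.2 to 27.9 TPM in htp-3, and rose in spo-11 by 2.71 ± 0.42.

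The propionate and methionine targets held 10 tested genes, of which 4 were higher and 2 lower in spo-11, and 7 were higher in htp-3, while median-of-ratios scaling gave 1 higher and 6 lower in spo-11 and 1 higher and 2 lower in htp-3. The propionate shunt gene acdh-1, a target of nhr-10 and nhr-68, was at 699 to 945 TPM in N2, 657 to 1179 TPM in spo-11 and 1270 to 1423 TPM in htp-3. It rose in htp-3 (0.71 ± 0.18, adjusted p = 0.00435) but was not called in spo-11 (0.10 ± 0.18). Median-of-ratios scaling ended the acdh-1 call in htp-3 (0.29, adjusted p = 0.221) and made a lower call in spo-11 (-0.74, adjusted p = 0.00364). ech-6, the next enzyme of the shunt, fell by 0.67 ± 0.16 in spo-11 and rose by 0.51 ± 0.16 in htp-3, but the ech-6 rise was not called under median-of-ratios scaling (0.09, adjusted p = 0.709). The direct test of htp-3 against spo-11 was 0.61 ± 0.18 for acdh-1 and 1.18 ± 0.16 for ech-6, both called. Of 8 tested detoxification and immune targets 5 were higher in spo-11 and 4 in htp-3, and under median-of-ratios scaling 4 were higher and 2 lower in spo-11. The immune genes irg-4 and irg-5 were at 2.98 to 11.6 and 1.71 to 2.78 TPM in N2, and at 175.5 to 279 and 172 to 316 TPM in spo-11. In htp-3 they were at 9.78 to 16.2 and 2.64 to 5.37 TPM. cyp-35D1, the target of nhr-176, was at 0.753 to 0.903 TPM in N2 and 1.19 to 2.81 TPM in spo-11, a rise of 0.57 ± 0.22 that was not called under median-of-ratios scaling (0.12, adjusted p = 0.587). Of 9 tested moulting genes 7 were higher in spo-11, and 3 were higher and 2 lower in htp-3, beside the same shares of all genes. Median-of-ratios scaling gave 5 higher in spo-11, and 2 higher and 2 lower in htp-3. They stayed weak throughout, with the list of 12 summing to 12.6 to 29.5 TPM in N2, 49.01 to 60.2 TPM in spo-11 and 26.8 to 43.2 TPM in htp-3.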

How the data were processed

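Poly(A) RNA of 12 whole-animal libraries was sequenced, 3 for each of 4 strains. The deposited files give, per gene, TPM and RPKM computed by the authors, and the submitters' processing notes name the build WBcel235. Aligner, counting rule and strand setting: not given in the sources used here. RPKM steps of whole reads gave back read numbers and mapped reads (32422219 to 42527086). limma 3.58.1 in R 4.3.3 was fitted to log2(TPM + 1) of genes at 1 TPM or more in at least 3 libraries. The fit had 1 mean per strain over all 12 libraries. It was also run on simulated data in which few genes changed, evenly up and down. That run does not check the fit under shifts as wide as those of spo-11 and htp-3. A gene was called at a Benjamini-Hochberg adjusted p below 0.05 over all 13650 genes. Each p-value sets a strain difference against the spread between libraries within strains, pooled over the 4 strains. It says nothing on the spread between independent strains of 1 mutation. Deviations of same-numbered libraries from their strain means had correlations of 0.12, 0.438 and 0.227 for htp-3 against spo-11. For dsb-2 against N2 the values were 0.345, 0.389 and 0.065, and for spo-11 against N2 0.14, 0.042 and 0.337. For htp-3 against N2 they were -0.1, 0.106 and 0.167. Members and gene lists were chosen with earlier results of these data known. Named were the 10 members highest in N2, members of 4 role lists, up to 10 called members at each end of a comparison whose libraries did not overlap and whose higher mean was at least 2 TPM, and the largest groups of neighbours. Promoter and protein sequences were not used here.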

Additional observations from a re-analysis of the deposited data

Results flagged for a closer look

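The change from N2 differed between spo-11 and htp-3 for 24 of the 39 receptors named for this comparison. The test was limma on htp-3 against spo-11, adjusted over all genes. Some of the 24 were named because they passed this test, so their number is a description only. Over all genes tested, 8.1% were called higher in htp-3 and 38.6% lower. On the log2(TPM + 1) scale the htp-3 level minus the spo-11 level was -1.79 for nhr-57, -1.23 for nhr-112, -1.22 for nhr-62, -1.06 for nhr-19, -1.03 for nhr-45, -0.99 for nhr-35, -0.98 for nhr-48, -0.97 for nhr-6, -0.96 for nhr-91 and -0.91 for nhr-56. It was -0.86 for nhr-97, -0.85 for nhr-25, -0.80 for nhr-40, -0.69 for nhr-80, -0.61 for nhr-85, -0.61 for nhr-20, -0.53 for nhr-60, -0.52 for nhr-28, -0.52 for nhr-46 and -0.44 for nhr-49. It was positive, with htp-3 higher, at 0.50 for nhr-201, 0.65 for nhr-286, 0.73 for nhr-55 and 0.80 for nhr-114. The all-gene median of this difference was -0.32, and -0.28 over the 162 tested members. After median-of-ratios scaling, with an all-gene median of 0.04, 8 of the 24 calls ended. Leaving out 1 library ended the calls of nhr-20, nhr-28, nhr-46, nhr-49, nhr-80, nhr-201 and nhr-286, depending on the library. No cause of the 24 differences was tested.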

How the results depend on the processing

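The counts for dsb-2 were 0 in both directions under every alternative. With the replicate block, which is a pairing of libraries by number, 136 members were higher and 4 lower in spo-11, 119 and 5 in htp-3, and 5 and 52 in htp-3 against spo-11, so the block moved no count by over 1.5 times. Median-of-ratios scaling gave 18 lower in spo-11 and 16 in htp-3, and 23 higher and 16 lower in htp-3 against spo-11. Under it signs in spo-11 turned, among others, for nhr-10 (-0.074), nhr-20 (-0.76), nhr-49 (-0.48), nhr-46 (-0.40) and nhr-55 (-0.12). Upper-quartile scaling gave 8 lower in spo-11 and, for htp-3 against spo-11, 17 higher and 24 lower. Over all 13650 genes these counts were 4231, 2258 and 4140. Brackets below give counts over all genes tested in the same fit. A minimum of 5 TPM left fewer to test, 94 members and 10319 genes. It gave 76 members higher in spo-11 (4731 genes), 65 in htp-3 (3776 genes) and 2 for htp-3 against spo-11 (948 genes). A required log2 fold change of 1 gave 1 lower in spo-11 (881 genes), and 62 higher and 0 lower in htp-3 (2844 and 277 genes). For htp-3 against spo-11 it gave 0 higher and 6 lower (309 and 2972 genes). For the last comparison no filter and a pseudocount of 5 gave 8 higher each (1282 of 19605 and 1143 of 13650 genes). Fitting only the strains compared gave 2 lower in htp-3 (2138 genes), and dsb-2 as reference gave 5 lower in spo-11 (3243 genes). Leaving out 1 library gave 1 to 7 lower in htp-3 (1789 to 3297 genes). For htp-3 against spo-11 it gave 3 to 6 higher (817 to 1474 genes) and 29 to 52 lower (4408 to 5111 genes). Of the called named receptors, 27 of 31 in spo-11 and 18 of 25 in htp-3 kept their call in every alternative fit that tested them. For htp-3 against spo-11, 14 of 24 did. The required log2 fold change of 1 and dsb-2 as reference were left out of this count. The cause of the shifts with scaling was not tested. Precision is limited by 3 libraries a strain and, for weak receptors, by few reads. Strand, multiply matching reads and overlapping genes, which touch 28 members, also limit single values.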
